A study of Homo sapiens with 6 samples.

Results

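The genes described here encode the Mediator complex, the transcriptional kinases CDK7, CDK9, CDK12 and CDK13 with their cyclins, and the factors that hold or release RNA polymerase II after initiation. They were taken by name: 51 genes were listed, and a gene counted as measured where the platform annotation gave a probe set to that gene alone. This left 47 measured genes with 146 probe sets, out of 19775 genes measured in all. MED6, MED25 and NELFE had no such probe set, and NELFA had only probe sets shared with a microRNA gene. Where a gene had several probe sets, the one with the highest mean over the 6 arrays stood for it.

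The arrays measured RNA of MOLM-14, a human leukaemia line of monocytic acute myeloid type that carries an MLL-AF9 rearrangement. The 3 DMSO samples were kept for 24 h with the vehicle and the 3 CA samples for 24 h with 10 nM CA. This is cortistatin A, a marine natural product known as a selective inhibitor of CDK8 and CDK19. All 6 samples are the same line in the same medium, with no transgene or knockout, and were plated as triplicate wells. The labels do not say that the wells came from separate cultures, so each p-value reflects the spread among these 6 samples alone, which may be technical.

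Mediator is a large complex that bridges DNA-bound transcription factors and RNA polymerase II. Its head and middle parts contact the polymerase, MED14 is the scaffold that holds the parts together, and the tail receives most activators. A separable kinase module, made of CDK8 or its paralog CDK19, cyclin C, MED12 and MED13 or their paralogs, docks onto this core and can keep the polymerase from engaging it. Downstream, CDK7 in TFIIH phosphorylates the polymerase tail, DSIF and NELF hold the polymerase near the start site, and CDK9 with cyclin T (P-TEFb) releases it. The 7SK particle, with HEXIM1 and LARP7, keeps P-TEFb inactive, and the super elongation complex delivers it. Several subunits of that complex are fusion partners of MLL in leukaemia.

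Over all probe sets, r was 0.998 between arrays of a group and 0.996 to 0.997 between groups, which is not a measure of RNA quality. For the GAPDH control probe sets, the 3' signal exceeded the 5' signal by 0.38 ± 0.02 in DMSO and 0.48 ± 0.05 in CA (log2, SD, n = 3, exact permutation p = 0.1, 2-sided, the smallest that 3 against 3 arrays allow). For ACTB the excess was 2.27 ± 0.13 and 2.38 ± 0.07 (exact permutation p = 0.3). The GAPDH difference moved with the treatment, and its part in the results below was not tested. Of 10 measured markers of the line's myeloid identity, 8 lay above the array median, among them LYZ, FLT3, MPO and MEIS1. ITGAM (-0.45), CSF1R (-0.39) and PTPRC (-0.59) fell and MEIS1 rose (0.25), on the log2 scale. The summed log2 level of the 10 markers was 85.4 to 85.85 in DMSO and 83.13 to 83.84 in CA, and the part of this shift in the results below was not tested. Of other cell types' markers, 2 of 6 for T and NK cells, 2 of 3 for B cells, 3 of 4 for erythroid and megakaryocytic cells and 2 of 6 for epithelium and stroma lay above it. Their summed levels were 30.89 to 31.82 in DMSO and 31.7 to 31.87 in CA, 19.44 to 19.66 and 19.84 to 20.19, 23.9 to 24.08 and 23.8 to 24.2, and 33.15 to 33.32 and 33.34 to 34.21. CD3E, MS4A1, PF4, EPCAM and COL3A1 lay below the array median in both groups. In these lists GNLY (0.77), PAX5 (0.42, from 9.68 to 10.1) and KRT18 (0.26) rose and NKG7 (-0.52) fell, and the part of these lists in the results below was not tested. In such bulk samples fewer cells of a type and less RNA per cell cannot be told apart.

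After CA, 9 of the 47 measured members rose and 0 fell, at an adjusted p under 0.05 in a limma fit of all genes. Those that rose were MED9, MED8, MED17, MED19 and MED20 of core Mediator, MED13L of the kinase module, the TFIIH kinase CDK7, the DSIF subunit SUPT4H1 and AFF1 of the super elongation complex. Their rises were small, from 1.12-fold (MED17) to 1.53-fold (MED9). The kinases that CA inhibits, CDK8 and CDK19, were not called, and neither were the P-TEFb genes. Of all genes tested, 6.64% were called higher and 4.49% lower, against 19.1% and 0% of the members.

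Genes of high mean intensity were called more often. Of genes averaging 9 or more in log2, 12.3% were called higher and 8.38% lower, against 7 of 33 members of that level (21.2%) higher and 0 lower. The median change of the members was 0.01 on the log2 scale, against -0.00 over all genes. The median size of change was 0.08 in both. Values of the groups did not overlap with CA higher in 12 members (25.5%, against 16.6% of all genes) and with CA lower in 9 (19.1%, against 15.2%). Over probe sets in place of genes, 5 of the 146 probe sets were called higher (3.42%), close to the 3.0% of all probe sets. One probe set was called lower (0.685%, against 2.01%). Higher genes made up 59.7% of all calls, and 82.4% when arrays were centred on reference genes, which adds 0.06 to every change.

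**Figure D1:**
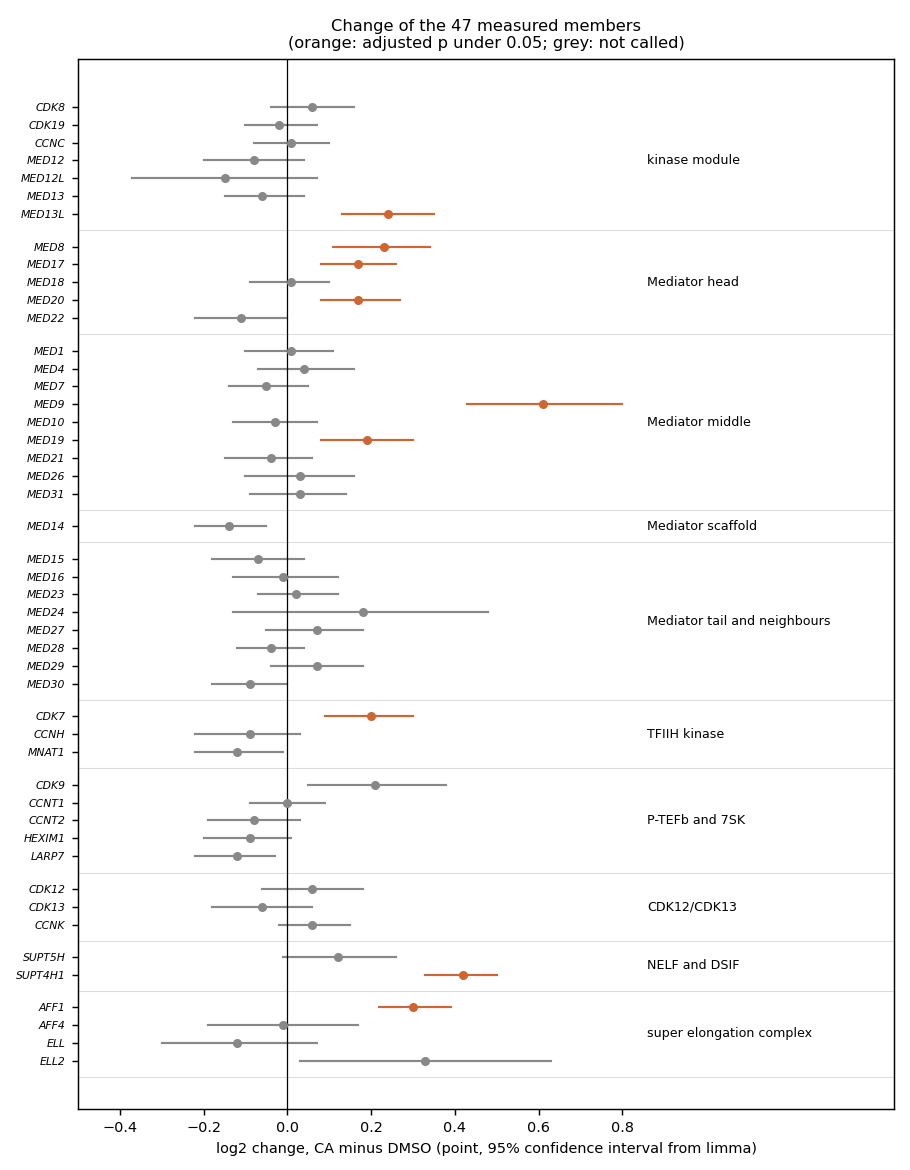
Change of each measured member in log2 units, CA minus DMSO, grouped by role; points are limma estimates from 3 against 3 arrays and lines are 95% confidence intervals. The 9 called members, in orange, all lie to the right of 0, with MED9 at 0.61, and the other 38, in grey, have a median size of change of 0.06.

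Of the 7 kinase module genes, 1 rose (14.3%, against 6.64% of all genes) and 0 fell (against 4.49%). Among genes averaging 9 or more in log2 these shares were 12.3% and 8.38%. Neither catalytic subunit was called. CDK8 read 10.30, 10.31 and 10.23 in DMSO and 10.29, 10.35 and 10.38 in CA (log2 intensity, replicates in order). The groups overlapped, and the change was 0.06 (SE 0.04, 95% confidence interval -0.04 to 0.16, adjusted p = 0.465). CDK19, its paralog, read 9.62, 9.55 and 9.61 in DMSO and 9.57, 9.59 and 9.58 in CA, again overlapping (change -0.02, interval -0.10 to 0.07, adjusted p = 0.851). All 3 probe sets of CDK8 lay between 0.01 and 0.06, and the 4 of CDK19 between -0.14 (SE 0.11) and 0.06. CCNC, the cyclin of both kinases, was at 0.01 (interval -0.08 to 0.10). A rise or fall of either kinase transcript by more than 1.2-fold lay outside these intervals, which are those of the 1 probe set used per gene.

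MED13L, which joins the module to the core, was the member of the module that rose. Its values were 10.20, 10.32 and 10.22 in DMSO and 10.48, 10.49 and 10.49 in CA, with no overlap. The change was 0.24 (SE 0.04, adjusted p = 0.0194), a 1.18-fold rise. All 5 of its probe sets pointed up, from 0.16 to 0.24, but only 1 was called. Its paralog MED13 was at -0.06 (0.01 with arrays centred on reference genes; interval -0.15 to 0.04, adjusted p = 0.473), on values of 10.86, 10.84 and 10.78 against 10.79, 10.79 and 10.74. The 4 MED13 probe sets lay below 0, from -0.27 to -0.06. The per-array difference between both paralogs changed by -0.30 (SE 0.05), MED13 minus MED13L, without overlap of the groups (exact permutation p = 0.1, the smallest possible; 0.28 adjusted over 7 paralog pairs). MED12, which activates the kinase through cyclin C, was at -0.08 (interval -0.20 to 0.04), and its paralog MED12L at -0.15 (interval -0.37 to 0.07).

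Among the other paralog pairs, AFF1 minus AFF4 changed by 0.31 (SE 0.09) without overlap of the groups (exact permutation p = 0.1, adjusted 0.28). The groups overlapped in the remaining 5 pairs, with an exact permutation p of 0.2 to 0.7. These were CDK8 minus CDK19 (0.07, SE 0.04), MED12 minus MED12L (0.07, SE 0.09), CCNT1 minus CCNT2 (0.08, SE 0.06), CDK12 minus CDK13 (0.12, SE 0.07) and ELL minus ELL2 (-0.45, SE 0.22). With 3 arrays a group no pair could pass the threshold. By the probe set of largest variance 5 of the 7 pairs did not overlap, and likewise 5 without DMSO replicate 3. Leaving out an array can only keep or raise this count, since groups already apart stay apart.

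In core Mediator, 5 of 23 measured genes rose (21.7%, against 6.64% of all genes) and 0 fell (against 4.49%). Among genes averaging 9 or more in log2 these shares were 12.3% and 8.38%. The 5 called genes were all in the head and the middle. Groups did not overlap with CA higher in 5 of the 23 and with CA lower in 5 others, or 21.7% each. The shares of all genes were 16.6% and 15.2%. Those lower were MED22, MED7, MED14, MED28 and MED30, and none of them was called. The MED7 groups met at 8.8 at the printed precision. With arrays centred on reference genes MED7 and MED28 turned to 0.02, while MED22 (-0.05), MED14 (-0.08) and MED30 (-0.03) stayed negative. The head, which sits nearest the polymerase, had 3 of 5 genes called (60.0%). MED8 read 8.63, 8.59 and 8.66 in DMSO and 8.77, 8.88 and 8.91 in CA (change 0.23, SE 0.05, adjusted p = 0.0335). Its other 2 probe sets were at 0.06 and -0.08, and on the mean of all 3 the change was 0.07 (adjusted p = 0.529). MED17, the central subunit of the head, read 10.18, 10.20 and 10.19 against 10.33, 10.34 and 10.40 (0.17, SE 0.04, adjusted p = 0.0392). MED20 read 9.89, 9.86 and 9.83 against 10.04, 9.99 and 10.07 (0.17, SE 0.04, adjusted p = 0.0429). In each of these genes the lowest CA array stood above the highest DMSO array. Of the other head genes, MED18 was at 0.01 and MED22 at -0.11, the latter with all CA values lower (7.32, 7.32 and 7.22 against 7.37, 7.43 and 7.4; adjusted p = 0.184).

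MED9, a subunit of the middle, rose the most of all members, by 1.53-fold. It read 6.77, 6.5 and 6.58 in DMSO and 7.15, 7.24 and 7.30 in CA, a mean of 6.62 ± 0.14 against 7.23 ± 0.07 (SD, n = 3; change 0.61, SE 0.08, adjusted p = 0.00477). The gap between the groups exceeded the spread within either. MED9 is measured by a single probe set, so no second one could be compared. MED19, which helps to dock the polymerase, read 9.34, 9.30 and 9.29 against 9.46, 9.47 and 9.57 (0.19, SE 0.04, adjusted p = 0.0425). Its second probe set was at 0.10 and uncalled, and on the mean of both the change was 0.15 (adjusted p = 0.0655 by limma). The other 7 genes of the middle lay between -0.05 and 0.04 on the probe sets used, and were uncalled. They were MED1 (0.01), the subunit bound by nuclear receptors, MED4 (0.04), MED7 (-0.05), MED10 (-0.03), MED21 (-0.04), MED26 (0.03) and MED31 (0.03). MED26 recruits elongation factors, and its other probe sets were at -0.15 and -0.01. Those of MED31 other than the one used were at -0.17 and -0.13.

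The scaffold subunit MED14 read 9.13, 9.08 and 9.11 in DMSO and 8.97, 8.97 and 8.97 in CA. All CA values were lower, and the change of -0.14 (SE 0.04, interval -0.22 to -0.05) missed the threshold (adjusted p = 0.0561 by limma). With a floor of 5 on the mean log2 of all genes the adjusted p was 0.0217, and with 1 array left out 0.0864 to 0.155. The change was -0.08 with arrays centred on reference genes (adjusted p = 0.262) and -0.08 on the mean of all its probe sets (adjusted p = 0.39). None of the 8 measured genes grouped with the tail was called in either direction. They were MED15 (-0.07), MED16 (-0.01), MED23 (0.02), MED24 (0.18), MED27 (0.07), MED28 (-0.04), MED29 (0.07) and MED30 (-0.09), with a median of 0.01. MED24 was dim and scattered, at 5.39, 4.97 and 5.03 in DMSO and 5.36, 5.42 and 5.14 in CA, below the array medians of 5.59 to 5.62. Its interval was -0.13 to 0.48.

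Among the kinases and elongation factors, 3 of 17 measured genes rose (17.6%, against 6.64% of all genes) and 0 fell (against 4.49%). For genes averaging 9 or more in log2 these shares were 12.3% and 8.38%. Groups did not overlap with CA higher in 6 of the 17 (35.3%, against 16.6% of all genes). They did not overlap with CA lower in 4 (23.5%, against 15.2%). CDK7, the kinase of TFIIH, read 10.22, 10.21 and 10.17 in DMSO and 10.37, 10.36 and 10.46 in CA (0.20, SE 0.04, adjusted p = 0.0326). Its cyclin CCNH read 10.04, 10.13 and 10.06 against 9.90, 10.02 and 10.03, and the assembly factor MNAT1 read 8.31, 8.30 and 8.32 against 8.16, 8.26 and 8.16. All CA values of CCNH and MNAT1 were below those of DMSO, for CCNH by a gap of 0.01, while those of CDK7 were above. The changes of CCNH (-0.09, adjusted p = 0.320) and MNAT1 (-0.12, adjusted p = 0.150) were uncalled, and were -0.03 and -0.06 with arrays centred on reference genes. Each of these 3 genes had 1 probe set.

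None of the P-TEFb and 7SK genes was called. CDK9, the kinase of P-TEFb, read 7.83, 8.0 and 8.05 in DMSO and 8.21, 8.09 and 8.22 in CA. The groups did not overlap, and the change of 0.21 (SE 0.07, interval 0.05 to 0.38) did not pass the threshold (adjusted p = 0.112; 0.0489 with arrays centred on reference genes). It passed at the same change with an intensity trend (adjusted p = 0.0248) and with a floor of 6 on the mean log2 (0.0419). Its other 2 probe sets were at -0.04 and -0.12, and the former is the one of largest variance. The cyclin CCNT1 was at 0.00 (interval -0.09 to 0.09) and CCNT2 at -0.08. HEXIM1, the inhibitor protein of the 7SK particle, read 9.25, 9.16 and 9.15 against 9.07, 9.14 and 9.09, a change of -0.09 (adjusted p = 0.255) with all 3 probe sets pointing down. LARP7, which stabilises 7SK RNA, was at -0.12 (SE 0.04, adjusted p = 0.105), also without overlap. CDK12 (0.06), CDK13 (-0.06) and their cyclin CCNK (0.06), which phosphorylate the polymerase within genes, were uncalled. Of the 8 CDK12 probe sets 3 shared the sign of the one used, as did 3 of the 7 of CDK13. The CDK13 probe set used ends in _x_at, which marks possible matches to further transcripts. With probe sets ending in _x_at or _s_at dropped, CDK13 turned to 0.18 (adjusted p = 0.0957 by limma).

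SUPT4H1 encodes the smaller subunit of DSIF and had the lowest adjusted p of the members. It read 10.43, 10.41 and 10.42 in DMSO and 10.83, 10.86 and 10.81 in CA, or 10.42 ± 0.01 against 10.83 ± 0.03 (SD, n = 3). The change was 0.42 (SE 0.04, adjusted p = 9.45e-04), a 1.33-fold rise many times the spread within a group. Its second probe set gave 8.5, 8.47 and 8.53 against 8.76, 8.71 and 8.92 and was also called (0.30; adjusted p = 0.0482 over all probe sets). SUPT5H, the partner subunit, read 9.04, 9.03 and 8.91 against 9.07, 9.19 and 9.08, higher in CA without overlap but uncalled (0.12, adjusted p = 0.239).

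AFF1 is a scaffold of the super elongation complex and an MLL fusion partner in other leukaemias. It read 12.26, 12.29 and 12.28 in DMSO and 12.60, 12.56 and 12.57 in CA (0.30, SE 0.03, adjusted p = 0.00341), a 1.23-fold rise. Its other 2 probe sets were at 0.10 and 0.04 and uncalled, and on the mean of all 3 the change was 0.15 (adjusted p = 0.273). The related scaffold AFF4 was at -0.01 (interval -0.19 to 0.17). One of the 8 AFF4 probe sets was called lower, with 6.80, 6.98 and 6.95 in DMSO and 6.52, 6.61 and 6.55 in CA (-0.35; adjusted p = 0.0262 over all probe sets). The elongation factors ELL (-0.12, adjusted p = 0.429) and ELL2 (0.33, adjusted p = 0.157) were uncalled. ELL2 was near the lower quartile of the arrays (4.11 to 4.14), at 4.43, 4.21 and 4.54 against 4.79, 4.89 and 4.49. Of its 4 probe sets, 2 pointed up and 2 down.

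**Figure D2:**
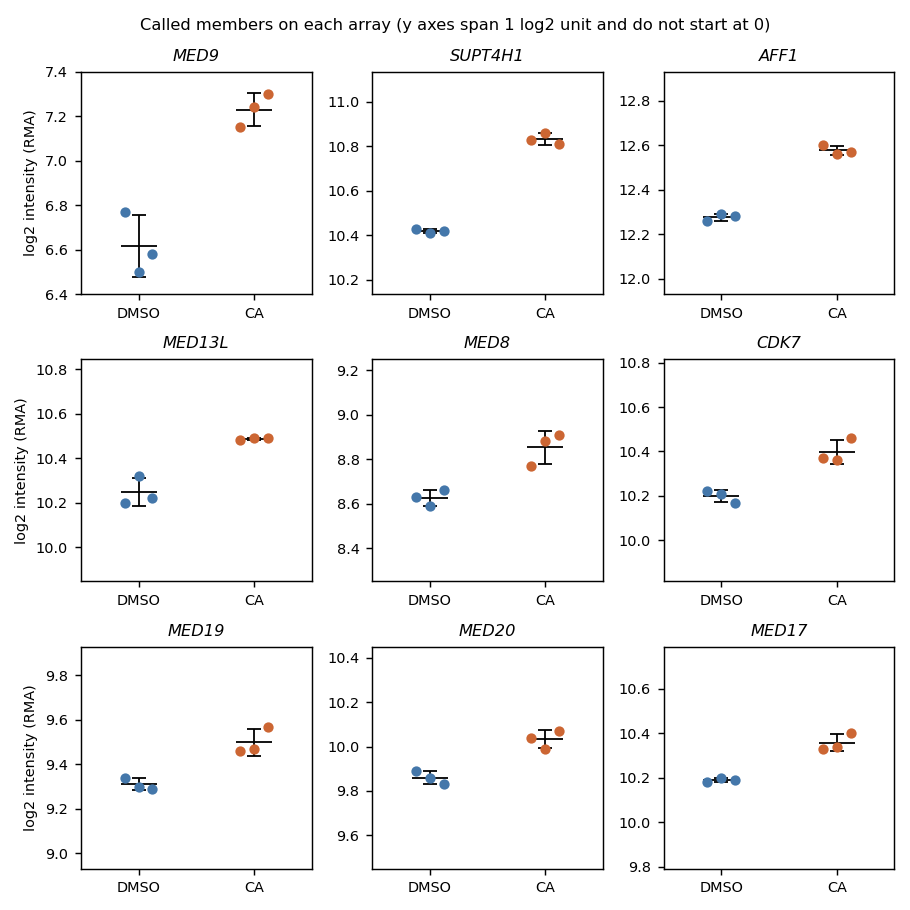
Log2 intensity of the 9 called members on each array, DMSO in blue and CA in orange; points are arrays, horizontal bars group means and whiskers SD (n = 3), on y axes of equal span. In every panel the lowest CA array lies above the highest DMSO array, with the widest gaps relative to spread in SUPT4H1 and AFF1.

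The calls differed in how many of the settings they were kept in. MED9, SUPT4H1 and AFF1 were called with any 1 of the 6 arrays left out, and these 3 were also the members called at an adjusted p under 0.01 and at a rise of at least 1.2-fold. CDK7, MED17, MED19 and MED20 lost their calls with each of the 6 arrays left out in turn (adjusted p of 0.0707 to 0.136). Their changes then stayed between 0.17 and 0.21 for CDK7, 0.14 and 0.18 for MED17, 0.16 and 0.21 for MED19, and 0.16 and 0.19 for MED20. MED13L was still called when DMSO replicate 2 was left out but not without any of the other 5 arrays (highest adjusted p 0.0758). MED8 was still called when CA replicate 1 was left out but not otherwise (highest 0.108). Fits of 5 arrays called 1173 to 1331 genes in all, in place of 2202. When a gene's probe sets were averaged, MED9, SUPT4H1 and CDK7 were the members called. MED9 and CDK7 have 1 probe set each, so averaging could not change their values, nor could choosing by variance. When probe sets with the endings _x_at and _s_at, marking possible matches to further transcripts, were dropped, MED8 turned to -0.08 (adjusted p = 0.595). MED17 was then at 0.09 (adjusted p = 0.351), MED19 at 0.19 (adjusted p = 0.0641), and MED20 and CDK7 were not measured.

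**Figure D3:**
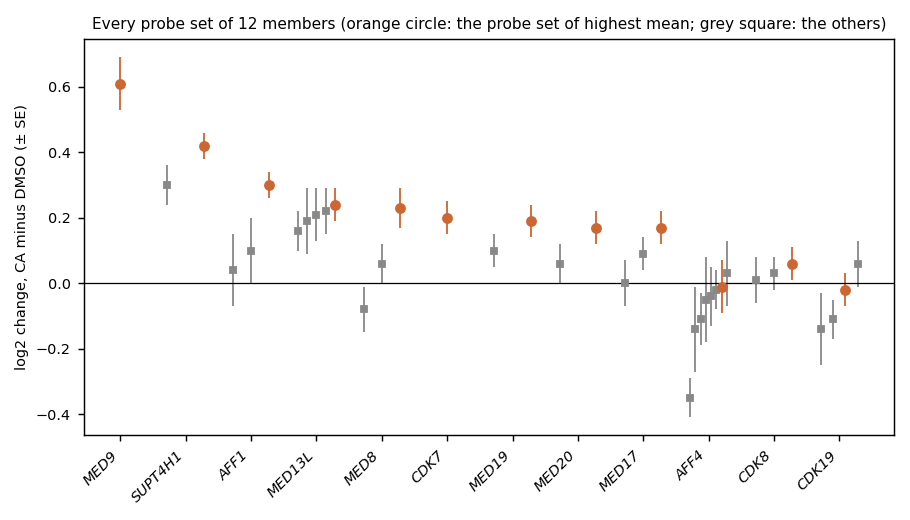
Log2 change (CA minus DMSO, ± SE) of every probe set of the 9 called members, AFF4, CDK8 and CDK19; the orange circle is the probe set used for the gene and grey squares are the others. Both SUPT4H1 probe sets and all 5 of MED13L lie above 0, MED8 has one at -0.08, and one of AFF4 lies at -0.35.

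**Figure D4:**
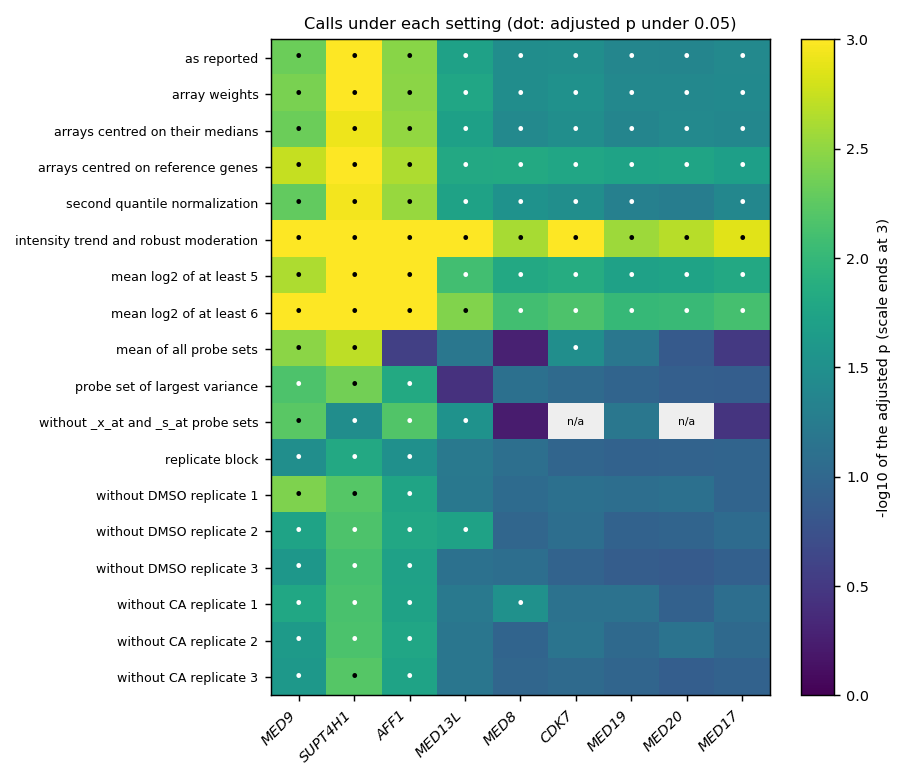
Adjusted p of the 9 called members, as -log10, under each setting of the fit; a dot marks an adjusted p under 0.05 and n/a a gene without a probe set left. MED9 and SUPT4H1 carry a dot in every row, AFF1 in every row except the mean of all probe sets, and the other 6 lose theirs in most of the rows that leave out an array. MED9 has 1 probe set, so the rows that average, choose or drop probe sets could not change its values.

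The windows upstream of the start sites are shown for SUPT4H1, AFF1 and MED9, whose rises were kept with any array left out, for MED17 as a smaller rise, and for CDK8 as the inhibited kinase whose transcript was not called. Each is the 250 bases before a RefSeq start of assembly GRCh38.p14, 5′ to 3′ on the gene's strand. Capitals mark the ETS core CGGAAG and the GC box GGGCGG on either strand. They lie at chr17:58352202-58352451 (minus strand, SUPT4H1), chr4:86934761-86935010 (plus, the upstream of the 2 listed AFF1 starts), chr17:17476750-17476999 (plus, MED9), chr11:93784032-93784281 (plus, MED17) and chr13:26253879-26254128 (plus, CDK8).
SUPT4H1: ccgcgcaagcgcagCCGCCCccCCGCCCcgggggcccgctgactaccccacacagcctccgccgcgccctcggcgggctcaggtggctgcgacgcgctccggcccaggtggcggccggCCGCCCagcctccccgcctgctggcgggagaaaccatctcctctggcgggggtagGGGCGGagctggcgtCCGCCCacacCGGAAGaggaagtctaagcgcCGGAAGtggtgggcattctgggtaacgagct
AFF1: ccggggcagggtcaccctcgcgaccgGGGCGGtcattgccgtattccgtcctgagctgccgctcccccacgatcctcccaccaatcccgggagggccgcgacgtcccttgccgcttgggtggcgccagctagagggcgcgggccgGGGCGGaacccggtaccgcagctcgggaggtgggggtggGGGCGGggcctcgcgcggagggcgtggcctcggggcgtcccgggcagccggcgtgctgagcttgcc
MED9: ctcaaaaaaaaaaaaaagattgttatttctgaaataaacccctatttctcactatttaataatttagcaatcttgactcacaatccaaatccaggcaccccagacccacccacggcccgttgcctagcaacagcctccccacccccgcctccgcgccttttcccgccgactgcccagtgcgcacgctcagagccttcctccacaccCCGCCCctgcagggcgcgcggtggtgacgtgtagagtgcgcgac
MED17: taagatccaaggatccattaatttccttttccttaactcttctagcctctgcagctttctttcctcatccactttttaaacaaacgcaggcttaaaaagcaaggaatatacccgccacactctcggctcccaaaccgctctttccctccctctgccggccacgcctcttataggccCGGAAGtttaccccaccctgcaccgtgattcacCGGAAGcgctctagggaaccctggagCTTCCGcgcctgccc
CDK8: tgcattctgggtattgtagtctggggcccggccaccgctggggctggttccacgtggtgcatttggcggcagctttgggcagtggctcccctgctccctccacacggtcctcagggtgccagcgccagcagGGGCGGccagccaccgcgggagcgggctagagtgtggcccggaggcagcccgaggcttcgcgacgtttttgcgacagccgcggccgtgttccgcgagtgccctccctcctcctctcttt

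The SUPT4H1 window holds 2 ETS cores and 5 GC boxes, and the MED17 window 3 ETS cores and 0 GC boxes. AFF1 has 3 GC boxes in the window shown, and MED9 and CDK8 have 1 each. A window was found for 39 of the 47 measured members, 8 of them called. In all, 8 motifs were searched on both strands, and a gene counted where any of its listed starts had a match. The ETS core lay upstream of 4 of the 8 called members (MED17, MED19, CDK7, SUPT4H1), 9 of 31 uncalled members and 19.4% of the 27305 genes with a window. The GC box lay upstream of 7 called and 22 uncalled members and 46.2% of genes, and the CCAAT box, CCAAT, of 3, 13 and 37.0%. TATAAA was found in 0 called and 3 uncalled members (13% of genes), and the E-box CACGTG in 2 and 3 (7.73%). The IRF element was found in 1 called member, MED17, and 1 uncalled (3.71% of genes). The STAT element TTCNNNGAA was found in 1 and 2 (8.09%), and the NF-kB element in 0 and 0 (1.73%). A GC box can overlap another GC box, and a match is a description of these letters, not of a bound site.

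Around these members, 90 further genes of the same machinery were listed, and 85 were measured. Of these, 10 rose and 2 fell (11.8% and 2.35%, against 6.64% and 4.49% of all genes), with a median change of 0.02. Of the 85, 81 averaged 6 or more in log2, a level at which 10.8% of genes were called higher. HEXIM2, the paralog of HEXIM1 in the 7SK particle, rose 1.42-fold, from 6.24, 6.22 and 6.17 to 6.6, 6.8 and 6.75 (0.51, SE 0.06, adjusted p = 0.00350). It was called with any array left out, but its second probe set pointed the other way. POLR2A, the largest subunit of RNA polymerase II, rose from 8.48, 8.48 and 8.41 to 8.69, 8.83 and 8.75 (0.30, SE 0.05, adjusted p = 0.0126), while the other 11 polymerase subunits were uncalled. Of the 3 POLR2A probe sets 2 pointed up, and the call was kept in 5 of the 6 limma fits with 1 array left out (highest adjusted p 0.0538). CTDSP2, a small phosphatase of the polymerase tail family, fell from 10.12, 10.11 and 10.11 to 9.79, 9.74 and 9.75 (-0.35, SE 0.04, adjusted p = 0.00184).

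Of 12 general transcription factor genes, 3 rose and 1 fell. GTF2B (0.24), GTF2E2 (0.20) and GTF2A1 (0.17) rose, and GTF2A2 (-0.20), which encodes the small subunit of TFIIA beside GTF2A1, fell. GTF2A1 was the fourth called gene of its list and is named beyond the rule because its partner moved the other way. By limma, GTF2A1 (adjusted p = 0.0304) kept its call in 0 of 6 fits with 1 array left out, and GTF2A2 (adjusted p = 0.0264) in 1. Their highest adjusted p in these fits was 0.0968 and 0.0952. In the super elongation complex list, AFF3, a paralog of AFF1 and AFF4, rose (0.20) as 1 of 7, and all 6 of its probe sets pointed up. Of 14 Integrator genes INTS13 (0.27) and INTS2 (0.18) rose, and of 7 genes of capping, cleavage and termination CSTF2 (0.16) and CPSF3 (0.15) rose. None of the 8 genes of the PAF1 complex list, the 6 of the TFIIH core or the 6 of TFIIS, FACT and elongin was called. The last list ranged from -0.14 (TCEA1, which encodes TFIIS) to 0.00 (ELOC), before the 0.06 that centring on reference genes adds. In 5 of its 6 genes (83.3%, against 15.2% of all genes) every CA value was below every DMSO value. HEXIM2, CTDSP2 and INTS13 kept their calls with any array left out. With arrays centred on reference genes 17 rose and 1 fell, and with 1 array left out 3 to 5 rose.

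**Figure D5:**
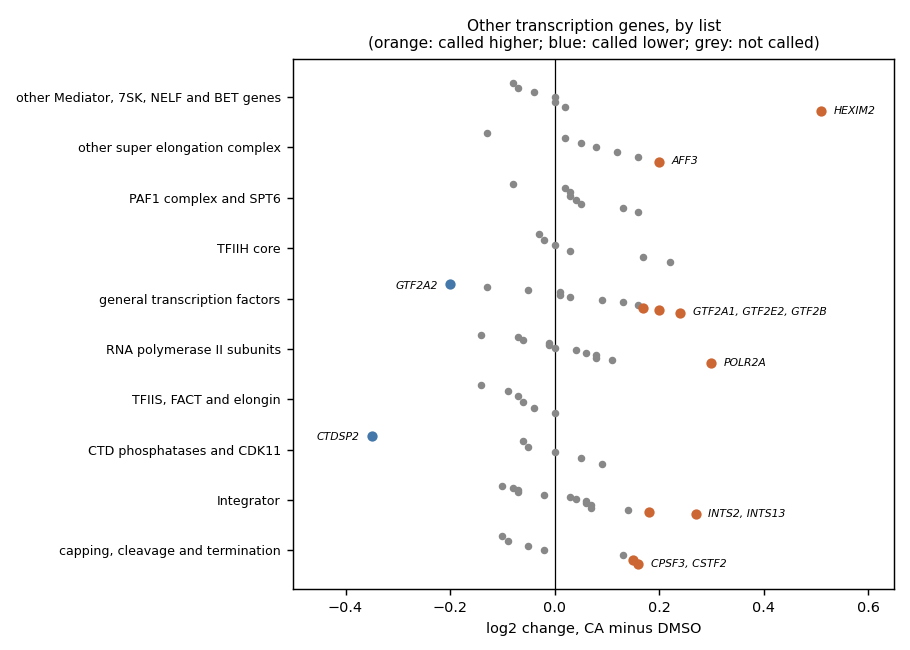
Log2 change (CA minus DMSO) of the 85 further transcription genes by list; orange points were called higher, blue lower and grey not called. HEXIM2 at 0.51 and CTDSP2 at -0.35 stand farthest from 0, and most of the others lie within 0.2 of 0.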

How the data were processed

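Total RNA of 6 MOLM-14 samples was copied from the 3' end, labelled with biotin and hybridised to 1 Affymetrix U133 Plus array each. The authors deposited 1 log2 intensity per probe set and array, obtained by RMA in affy according to the submitters' processing notes, without a stated version. RMA normalizes arrays against each other and compresses large changes. Of 54675 probe sets, 41091 had 1 gene symbol in the platform annotation, 1801 had several and 11721 were unnamed here; symbols were updated by Entrez number (99.9% matched). Each gene took its probe set of highest mean, without a filter on level.

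The groups were compared by limma 3.58.1 (lmFit, eBayes, 2-sided) in R 4.3.3, with Benjamini-Hochberg adjustment over 19775 genes and calls at an adjusted p under 0.05. The fit was tested on simulated data. Paralog pairs were compared by exact permutation tests of per-array differences. The members, gene lists, motifs and tests were chosen with earlier results of these data known. Every measured member is named, with array values for called ones, and up to 3 called genes of each further list. No label says that same-numbered arrays were paired, and their deviations correlated weakly (0.0225 to 0.0299), so numbers were not taken as pairs. Alternatives are listed in the closing section; centring on reference genes (ACTB, B2M, GAPDH, HPRT1, SDHA, YWHAZ) was added after seeing the data. Arrays have no read depth; their number sets the precision.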

Additional observations from a re-analysis of the deposited data

How the results depend on the processing

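The number of members called higher (9) was 3 on the mean of all probe sets, 3 on the probe set of largest variance, 4 once _x_at and _s_at probe sets were dropped and 4 when every probe set was tested. It was also 3 at an adjusted p under 0.01, 3 at a rise of at least 1.2-fold, and 3 to 4 with 1 array left out. It stayed between 8 and 10 under array weights, both centrings, an intensity trend with robust moderation, a second quantile normalization, a floor of 5 or 6 on the mean log2, and an adjusted p under 0.1. No member was called lower by limma in the reported fit. That number was 2 with the intensity trend (MED14, adjusted p = 0.0127, and LARP7, 0.0123), 2 with a floor of 5, 2 with one of 6, and 1 with the second quantile normalization (MED14, 0.0379). It was 1 on the probe set of largest variance (AFF4, 0.0263), 1 with every probe set tested and 1 at an adjusted p under 0.1. In the setting without _x_at or _s_at probe sets, MED8 turned to -0.08 (adjusted p = 0.595); no other called member changed sign.

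All genes called (2202) were 3814 with the intensity trend, 3453 with a floor of 6, 1411 on the probe set of largest variance, 1336 without _x_at or _s_at probe sets, 885 at an adjusted p under 0.01, 1249 at a change of at least 1.2-fold, and 1173 to 1331 with 1 array left out. The further genes called higher (10) were 17 centred on reference genes, 20 with the intensity trend, 16 with a floor of 5, 16 with one of 6 and 16 at an adjusted p under 0.1. They were 5 on the mean of all probe sets, 4 on that of largest variance, 4 without _x_at or _s_at probe sets, 2 at an adjusted p under 0.01, 3 at 1.2-fold and 3 to 5 with 1 array left out. Those called lower (2) were 7 with the intensity trend, 4 with a floor of 5, 5 with one of 6, 4 at an adjusted p under 0.1, and 1 in each of these: centred on reference genes, the mean of all probe sets, the largest variance, without _x_at or _s_at, adjusted p under 0.01 and 1.2-fold. With 1 array left out they were 1 to 2. Paralog pairs without overlap (2) were 5 on the probe set of largest variance and 2 to 5 with 1 array left out. The last count could not fall, since groups that do not overlap stay so when an array is removed.

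With the replicate number as a block, 3 members were called higher (MED9, SUPT4H1 and AFF1), 3 further genes higher and 1 lower, and 1118 genes in all. No label says that the numbers pair the samples, and 0 of 6 arrays correlated best with their own number. This check on 3 arrays a group cannot exclude pairing. The reasons for these differences between settings were not tested. With 3 arrays a group no exact permutation test could fall under 0.1.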

Other observations

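The annotation gave 3 further probe sets to a member together with a microRNA gene, and none of these was called. The 2 probe sets of NELFA, a subunit of the pausing complex NELF, read 8.71 ± 0.05 in DMSO and 8.75 ± 0.02 in CA, and 8.58 ± 0.05 and 8.59 ± 0.06 (log2, SD, n = 3; changes 0.04 and 0.01, adjusted p = 0.698 and 0.925 by limma over all probe sets). That of MED24, a tail subunit, read 7.78 ± 0.03 and 7.83 ± 0.03 (change 0.06, adjusted p = 0.568), inside the interval of the MED24 probe set used above.

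Of the 38 uncalled members, 32 had a 95% confidence interval within 0.25 of 0 on the log2 scale, and their median size of change was 0.06. Among the 37 members with several probe sets, all probe sets of a member pointed the same way in 19.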
